A study of Mus musculus with 6 samples.

Results

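The MAPK dual-specificity phosphatases are the typical members of the DUSP family, enzymes that remove both the threonine and the tyrosine phosphate from the activation loop of a MAP kinase and thereby switch it off. The group was set by gene symbol and consisted of Dusp1, Dusp2, Dusp4, Dusp5, Dusp6, Dusp7, Dusp8, Dusp9, Dusp10 and Dusp16, which are 10 of the 54532 genes in the expression table. All 10 had a row and all 10 passed the filter on low values (a mean of at least 0.5 FPKM over the 6 samples), which left 13794 genes in the test. FPKM is a count of fragments divided by the length of the transcript and by the depth of the library, so that levels can be compared between genes as well as between samples.

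The typical phosphatases fall into 3 groups by where they reside and which kinase they act on. Dusp1, Dusp2, Dusp4 and Dusp5 encode nuclear enzymes, and their genes are known to be switched on by the growth factor and stress signals that they later end. Dusp6, Dusp7 and Dusp9 encode cytoplasmic enzymes that prefer ERK, and Dusp8, Dusp10 and Dusp16 encode enzymes directed at the stress kinases JNK and p38. Because several of them are both targets and inhibitors of ERK, their transcripts are commonly read as a record of past signaling through RAS and RAF. In the heart, ERK, JNK and p38 take part in the growth of the myocyte.

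RNA was sequenced from 6 cultures of mouse neonatal primary cardiomyocytes, 3 infected with an adenovirus that carries Cre recombinase (AdCre, genotype Rit1 M90I/+) and 3 infected with a GFP adenovirus (AdGFP, genotype Rit1 +/+). RIT1 is a small GTPase related to RAS, and M90I is a variant found in Noonan syndrome. According to the methods of the study, the mice carried a Rit1 locus from which Cre induces the variant, the hearts came from neonates of 1 to 3 days, cells were seeded at about 1 heart per well, infection took place on day 3 of culture and RNA was taken on day 6 after infection. Both groups therefore shared the inducible locus, the culture and an adenoviral infection with GFP, since the Cre virus encodes a fusion with GFP. No cells without the inducible locus were given AdCre in these samples, so Cre itself and the variant cannot be told apart. The labels call all 6 samples biological replicates without naming animals or litters, and p-values measure only the spread between these samples.

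The libraries held 25276396 to 32428940 reads in genes, with AdCre replicate 1 the deepest. At these depths 1 FPKM in a transcript of 2 kb stood for 49.3 to 64.1 reads. The level of Rit1 was 8.55 ± 0.774 FPKM in AdGFP cells and 9.19 ± 0.351 FPKM in AdCre cells (SD, n = 3), and FPKM does not separate the alleles, so this level does not check the genotype. The 12 cardiomyocyte markers summed to 2827 to 8575 FPKM over the 6 samples, with Tnnt2, cardiac troponin T, at 210 to 537 FPKM. The cultures also held transcripts of other heart cells, given below with the results they move with. In bulk RNA, fewer cells of a type and less RNA per cell cannot be told apart.

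Promoter sequence was available for 8 of the 10 genes (RefSeq, build GRCm38.p6), with no entry for Dusp4 and Dusp9. The stretches from 150 to 51 bases upstream of the start are shown for Dusp2 and Dusp5, the members whose AdCre and AdGFP levels did not overlap, and for Dusp1, an inducible member whose mean level was nearly equal in both groups. Each is written 5′ to 3′ on the strand of the gene, and capitals mark matches to a cAMP response element (TGACGTCA), an E-box (CACGTG), an EGR site (GCGNGGGCG) or a CArG box, which is the site of serum response factor.
Dusp1, chr17:26508523-26508622, minus strand: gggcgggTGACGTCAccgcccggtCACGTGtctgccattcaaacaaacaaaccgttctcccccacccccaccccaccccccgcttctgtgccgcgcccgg
Dusp2, chr2:127336009-127336108, plus strand: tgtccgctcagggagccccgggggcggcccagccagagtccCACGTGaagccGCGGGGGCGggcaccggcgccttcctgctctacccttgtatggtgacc
Dusp5, chr19:53528995-53529094, plus strand: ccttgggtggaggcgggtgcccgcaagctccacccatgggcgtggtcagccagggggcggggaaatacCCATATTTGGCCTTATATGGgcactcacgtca
None of these bases lies in an annotated exon (GENCODE M21), and gene positions below are from that annotation on GRCm38.

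The promoters of the family had different motifs. Dusp5 carried 2 adjacent CArG boxes, at -82 to -73 and -72 to -63, and was the only one of the 8 with a match, against 1.63% of all 32851 promoters of the same length. Dusp2 carried an E-box at -109 to -104, as did Dusp1 at -126 to -121 and 7.15% of all promoters, and an EGR site at -98 to -90, and Dusp16 carried the only other EGR match, with 5.55% of all promoters holding that site. Full cAMP response elements, held by 1.79% of promoters, were found in Dusp1 at -143 to -136 and at 2 places in Dusp8. The shorter TGACG, which is contained in that element, was found in 5 of the 8 promoters and in 20.8% of all. No match was found in any of the 8 for an ETS site (CCGGAAG, 8.86% of all), an AP-1 site (TGANTCA, 7.81%) or TATAAA (13.6%). Both strands of 250 bases before to 50 after the start were searched, and a match is a description of the letters, not of binding. The 8 promoters were rich in G and C, from 57.3% to 78.7% against a median of 52.7% over all promoters, and their CpG ratio (observed over expected) was 0.713 to 0.921 against a median of 0.384.

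The family spanned a wide range of levels in the control cells. In AdGFP, Dusp4 was highest at 50.9 FPKM, and its lowest sample stood above the highest sample of Dusp6 (22.8 FPKM). Dusp6, Dusp1 (17.7 FPKM) and Dusp7 (16.0 FPKM) followed with overlapping samples. Dusp5, Dusp8, Dusp10 and Dusp16 lay between 8.59 and 4.03 FPKM, and each neighbouring pair among them overlapped. Dusp2 at 1.73 FPKM and Dusp9 at 0.625 FPKM stood apart below the rest. In AdCre, Dusp4 was again first at 83.6 FPKM and Dusp9 again last at 1.69 FPKM. Dusp5, at 15.9 FPKM, there overlapped with Dusp7 and stood above Dusp8, while Dusp2, at 4.02 FPKM, overlapped with Dusp10 and Dusp16. The plot of levels by sample shows this order on a log axis.

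**Figure D1:**
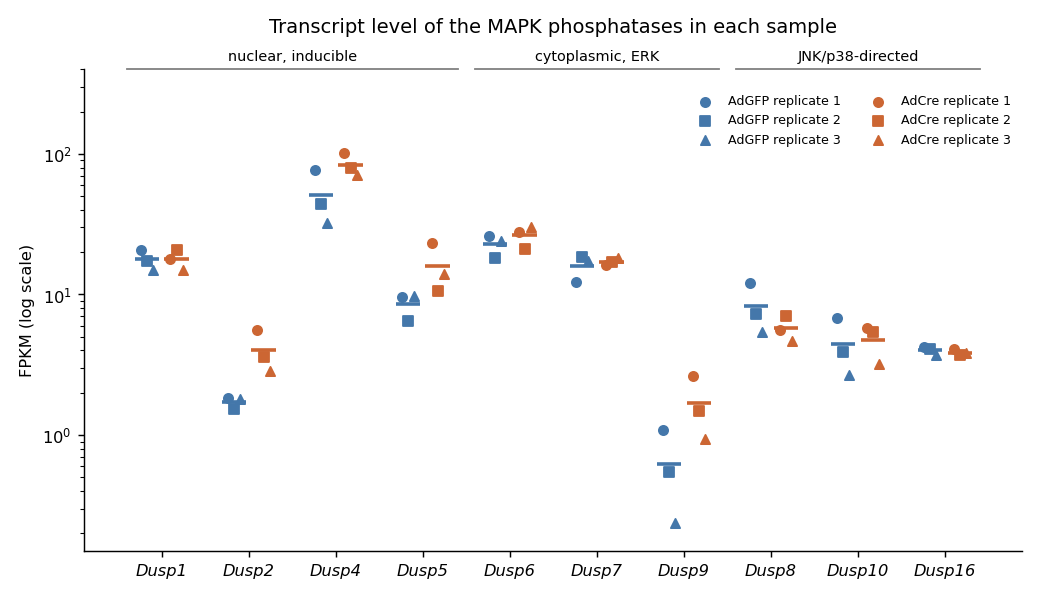
FPKM (log axis) of the 10 phosphatase genes in each of the 3 AdGFP (blue) and 3 AdCre (orange) samples, with the replicate number as the symbol and the group mean as a line. Dusp2 and Dusp5 are the genes whose AdCre samples all lie above all AdGFP samples, and Dusp4 is the most abundant member in both groups.

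The question was whether AdCre cells differ from AdGFP cells in these genes. Dusp2, Dusp4, Dusp5 and Dusp9 were higher in AdCre by 1.73- to 2.59-fold, and each was higher in all 3 pairs of samples with the same replicate number. The other 6 members differed by less, from 0.729-fold for Dusp8 to 1.16-fold for Dusp6. By limma with the group alone, 0 of the 10 members passed an adjusted p of 0.05, as did 0.00725% of all genes tested (1 gene), and voom on recovered reads also called 0. At an unadjusted p under 0.05 in that fit, those 4 members were higher and none lower, where 4.71% of all genes were higher. With the replicate number as a block, which removes differences shared by samples of the same number, the same 4 passed an adjusted p of 0.05. They were all higher, beside 2.64% of all genes called higher and 6.15% called in either direction. Samples with the same number did deviate together over all genes, although the labels do not say what the number marks. These 4 calls, like those over all genes, depended on which samples were included. A sample left without its partner of the same number adds nothing to the blocked fold change, so leaving out 1 sample removes its pair. Without AdGFP replicate 2, AdGFP replicate 3, AdCre replicate 2 or AdCre replicate 3, the blocked fit called 0 members, and of all genes it called 164, 1, 188 and 1 in that order. Without AdCre replicate 1 it called only Dusp4 and Dusp5, with 643 calls over all genes. Without AdGFP replicate 1 it called all 4. Leaving out either sample of number 1 gave the same blocked fold changes, for example a log2 fold change of 0.90 for Dusp2. The calls of those fits differed only through the genes tested and the variance prior. All 4 calls were also lost without the filter on low values (limma adjusted p-values of 0.102 to 0.129, 17 calls over all genes) and without a trend in the variance prior (0.0582 to 0.110, 0 calls over all genes).

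The median log2 fold change over the 10 members was 0.18, with 8 above 0, beside a median of -0.0022 over all genes tested. With 1 sample left out of the group fit, the members' median ran from 0.16 to 0.41, with 6 to 8 members above 0. By pair, the members' median was 0.24, 0.36 and 0.28 for replicates 1, 2 and 3. The groups did not overlap, with AdCre higher, for 2 members, which is to be read beside 7.36% of all genes, and 5 members were higher in all 3 pairs, beside 23.9% of all genes. Fold changes are on the scale of log2(FPKM + 0.1), which understates the change of the lowest genes.

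**Figure D2:**
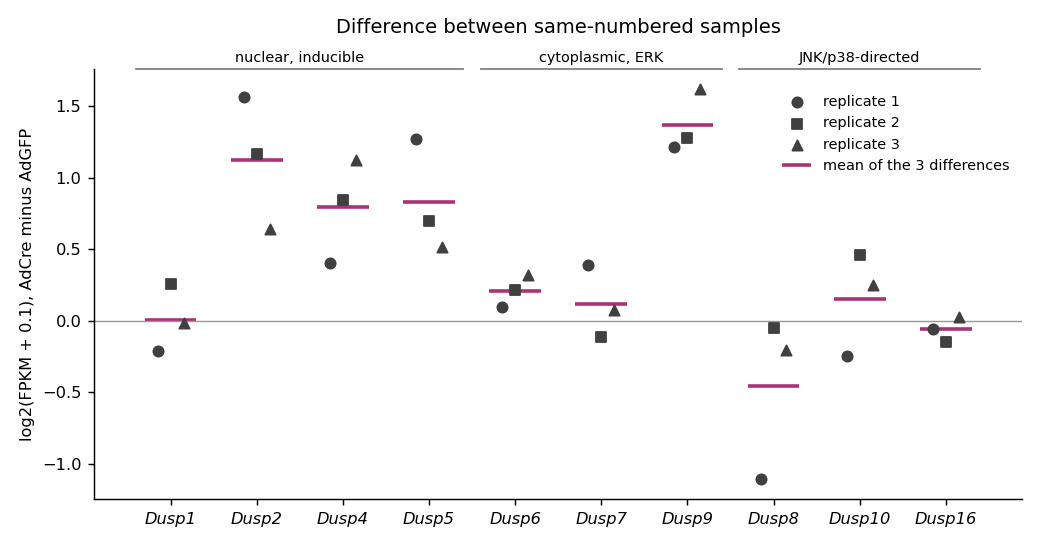
Difference in log2(FPKM + 0.1) between the AdCre and AdGFP samples of the same replicate number for each gene, with the mean of the 3 differences as a bar. All 3 points lie above 0 for Dusp2, Dusp4, Dusp5, Dusp6 and Dusp9, and all 3 lie below 0 for Dusp8.

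Among the nuclear phosphatases, Dusp2 had the clearest separation of the groups. It encodes an inducible enzyme first known from activated lymphocytes, which acts on ERK and p38. Dusp2 (chr2:127336159-127338376, plus strand) measured 1.84, 1.54 and 1.80 FPKM in AdGFP replicates 1 to 3, and 5.63, 3.58 and 2.87 FPKM in AdCre replicates 1 to 3. All AdCre samples stood above all AdGFP samples, and the AdCre samples were spread more widely, at 4.02 ± 1.43 FPKM against 1.73 ± 0.165 FPKM (SD, n = 3). These levels rest on 78 to 91 reads in AdGFP and 159 to 361 reads in AdCre. The log2 fold change was 1.12 with an SE of 0.25 (95% confidence interval 0.52 to 1.72, limma adjusted p = 0.252). With the block the interval narrowed to 0.65 to 1.60 and the limma adjusted p was 0.0351. The exact two-sided permutation test gave p = 0.1, the smallest that 3 samples against 3 allow. In the blocked fit, leaving out AdGFP replicate 1 kept the call, and leaving out any other single sample gave limma adjusted p-values of 0.0575 to 0.127. Of the 10 lymphocyte markers, 4 were at 0 in every sample and none passed the filter. Their summed level was 0.245 to 0.495 FPKM in AdGFP and 0.430 to 1.505 FPKM in AdCre, and their part in the Dusp2 difference was not tested.

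Dusp4 was the most abundant member. It encodes a nuclear phosphatase of ERK and JNK that is induced by ERK signaling. Dusp4 (chr8:34807297-34819894, plus strand) measured 76.5, 44.0 and 32.2 FPKM in AdGFP and 101, 79.1 and 70.4 FPKM in AdCre. In both groups replicate 1 was highest and replicate 3 lowest, and the groups overlapped, because AdGFP replicate 1 stood above AdCre replicate 3. Within each replicate number AdCre was higher, by 1.33-, 1.80- and 2.19-fold. With the group alone the log2 fold change was 0.79 with an SE of 0.32 (95% confidence interval 0.044 to 1.54, limma adjusted p = 0.470). With the block the SE was 0.14, the interval 0.45 to 1.14 and the limma adjusted p 0.0370. The call held without either sample of number 1 and was lost without any 1 of the other 4, with limma adjusted p-values of 0.122 to 0.135. In the group fit the log2 fold change was 0.51 without AdGFP replicate 3. Its exact two-sided permutation p was 0.2.

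Dusp5 encodes a nuclear phosphatase that acts on ERK alone. Dusp5 (chr19:53529109-53542431, plus strand) measured 9.54, 6.44 and 9.78 FPKM in AdGFP and 23.1, 10.5 and 14.0 FPKM in AdCre. The lowest AdCre sample, replicate 2, stood only slightly above the highest AdGFP sample, and replicate 2 was the lowest sample of both groups. The log2 fold change was 0.83 with an SE of 0.31 (95% confidence interval 0.10 to 1.55, limma adjusted p = 0.429). With the block the interval was 0.45 to 1.20 and the limma adjusted p 0.0418. This call too held without either sample of number 1 and was lost without any 1 of the others, at 0.0919 to 0.114. In the group fit the log2 fold change was 0.52 without AdCre replicate 1. The exact two-sided permutation p was 0.1. Exons of AC137853.2 on the opposite strand cover 22.1% of the exonic bases of Dusp5. The use of strand in counting is not given in the sources used here, so reads from that part could belong to either gene.

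Dusp1 encodes the immediate-early phosphatase of p38, JNK and ERK. Dusp1 (chr17:26505590-26562128, minus strand) measured 20.9, 17.3 and 15.0 FPKM in AdGFP and 18.0, 20.7 and 14.8 FPKM in AdCre. The groups lay across each other, with means of 17.7 ± 2.93 and 17.8 ± 2.93 FPKM (SD, n = 3). The log2 fold change was 0.0065 with a 95% confidence interval of -0.41 to 0.42 (limma adjusted p = 0.998), and with the block the interval was -0.26 to 0.27. The blocked interval thus allows differences of 0.836- to 1.21-fold and leaves out the fold changes estimated for Dusp2, Dusp4 and Dusp5. The reads of Dusp1 came out whole at a length of 2697 bases rather than at the 3311 exonic bases of the annotation, which bears on its rank among the members but not on the comparison of the groups.

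Dusp1 and Dusp2 shared a feature of the transcript that Dusp4 and Dusp5 did not. Their 3′ untranslated regions held 4 copies each of AUUUA, the core of the elements known to shorten the life of immediate-early mRNAs, or 5.80 and 6.88 per kilobase. These are the 96.1st and 97.6th percentiles of 12018 tested genes, whose median was 1.36 per kilobase. Dusp4 had 1.80 and Dusp5 0.902 per kilobase, within the middle of that distribution.

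Among the cytoplasmic ERK phosphatases, Dusp9 differed most between the groups and was the least abundant. Dusp9 encodes an ERK-preferring enzyme and lies on the X chromosome (chrX:73639419-73643514, plus strand). It measured 1.09, 0.550 and 0.238 FPKM in AdGFP and 2.65, 1.48 and 0.941 FPKM in AdCre. As for Dusp4, replicate 1 was the highest and replicate 3 the lowest of each group, and AdGFP replicate 1 stood above AdCre replicate 3. The values rest on only 16 to 73 reads in AdGFP and 71 to 231 reads in AdCre. Its log2 fold change was 1.37 with an SE of 0.54 (95% confidence interval 0.088 to 2.66, limma adjusted p = 0.467). With the block the interval was 0.85 to 1.89 and the limma adjusted p 0.0290. The blocked call held without AdGFP replicate 1 and was lost without any other single sample, with limma adjusted p-values of 0.0618 to 0.127. In the group fit the log2 fold change was 0.91 without AdGFP replicate 3, and 0.71 with a pseudocount of 1 in place of 0.1. The exact two-sided permutation p was 0.2. Xist, the noncoding RNA of the inactive X chromosome in female cells and looked up after the values of Dusp9 were seen, ranged from 6.02 to 7.35 FPKM in the AdGFP samples and from 5.41 to 7.96 FPKM in the AdCre samples.

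Dusp6 encodes the cytoplasmic phosphatase that is specific for ERK and is widely used as an ERK target. Dusp6 (chr10:99263231-99267489, plus strand) measured 26.2, 18.2 and 24.0 FPKM in AdGFP and 28.0, 21.1 and 30.0 FPKM in AdCre. AdCre was higher within each pair, by 1.07-, 1.16- and 1.25-fold, and the groups overlapped. The log2 fold change was 0.21 with a 95% confidence interval of -0.24 to 0.67 (limma adjusted p = 0.797). With the block the interval was 0.015 to 0.41 and the limma adjusted p 0.177, so that Dusp6 passed in neither fit. With 1 sample left out, the estimate of the group fit ran from 0.057 without AdGFP replicate 2 and 0.11 without AdCre replicate 3 to 0.36 without AdCre replicate 2. Dusp7, a close relative with the same preference (chr9:106368632-106375724, plus strand), measured 12.3, 18.4 and 17.4 FPKM in AdGFP and 16.2, 17.0 and 18.3 FPKM in AdCre. Its AdCre samples lay among the AdGFP ones, and its log2 fold change was 0.12 (95% confidence interval -0.29 to 0.52, limma adjusted p = 0.892). Without AdGFP replicate 1, the lowest of the 6, the estimate for Dusp7 was -0.061.

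None of the JNK- and p38-directed phosphatases passed in either fit. Dusp8, which encodes a phosphatase of JNK and p38 known from brain and heart (chr7:142079490-142095843, minus strand), was the member with the lowest fold change. It measured 12.1, 7.28 and 5.43 FPKM in AdGFP and 5.56, 7.02 and 4.69 FPKM in AdCre. AdGFP replicate 1 alone stood well above the other samples, and the rest of the groups overlapped. The log2 fold change was -0.46 (95% confidence interval -1.17 to 0.25, limma adjusted p = 0.685) and ran from -0.72 without AdGFP replicate 3 to -0.14 without AdGFP replicate 1. Dusp10 (chr1:184013302-184075636, plus strand), whose product acts on JNK and p38, measured 6.81, 3.88 and 2.69 FPKM in AdGFP and 5.74, 5.37 and 3.22 FPKM in AdCre. These ranges lay across each other, with a log2 fold change of 0.15 (95% confidence interval -0.71 to 1.02, limma adjusted p = 0.944). The estimate for Dusp10 ran from -0.15 without AdGFP replicate 3 to 0.51 without AdGFP replicate 1. Dusp16 (chr6:134715468-134792625, minus strand), which encodes a JNK phosphatase, was the steadiest member. It measured 4.24, 4.11 and 3.74 FPKM in AdGFP and 4.08, 3.70 and 3.80 FPKM in AdCre. Its log2 fold change was -0.059 (95% confidence interval -0.35 to 0.23, limma adjusted p = 0.934). After each sample was rescaled to TPM it was 0.029, where the median of all genes was 0.092, so that Dusp16 lay below that median on both scales.

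**Figure D3:**
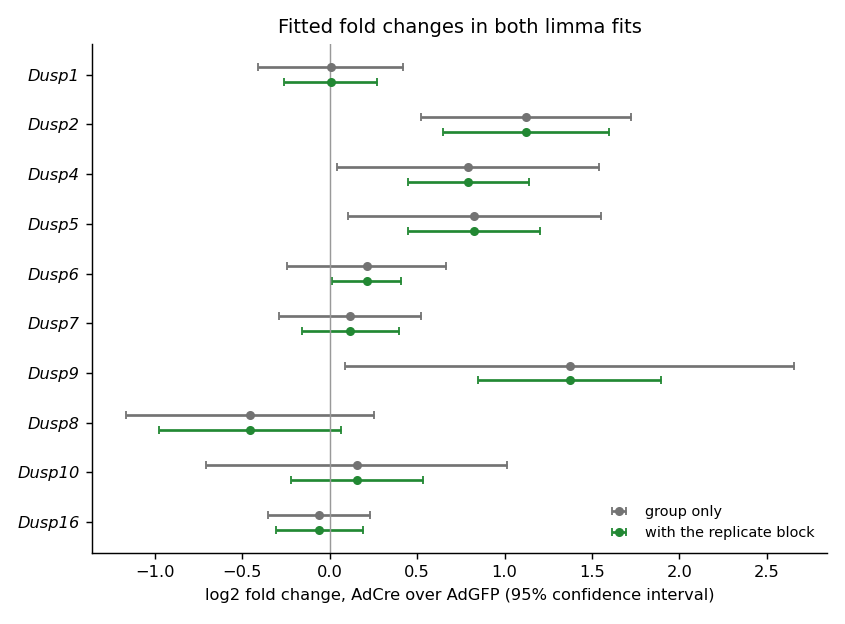
Log2 fold change of AdCre over AdGFP (x axis) with its 95% confidence interval for each gene, from limma with the group alone (grey) and with the replicate block (green). The blocked intervals of Dusp2, Dusp4, Dusp5 and Dusp9 start at 0.45 or above, while those of Dusp1, Dusp7, Dusp8, Dusp10 and Dusp16 hold 0.

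The members' summed level and its make-up were compared as a description. The 10 genes summed to 171, 122 and 112 FPKM in AdGFP and to 210, 170 and 163 FPKM in AdCre. AdCre was higher in each pair, while AdGFP replicate 1 stood above the lower 2 AdCre samples. The nuclear group went from 79.0 ± 26.3 to 121 ± 23.9 FPKM, the cytoplasmic group from 39.4 ± 2.27 to 45.2 ± 5.04 FPKM and the JNK- and p38-directed group from 16.8 ± 5.79 to 14.4 ± 2.35 FPKM (SD, n = 3). Dusp4 alone made up 28.7% to 44.6% of the sum in AdGFP and 43.2% to 48.2% in AdCre. The mean share of Dusp8 was 5.96% in AdGFP and 3.22% in AdCre, that of Dusp2 was 1.31% and 2.18%, and that of Dusp1 was 13.3% and 9.95%. As shares of 1 sum they are not independent of each other.

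**Figure D4:**
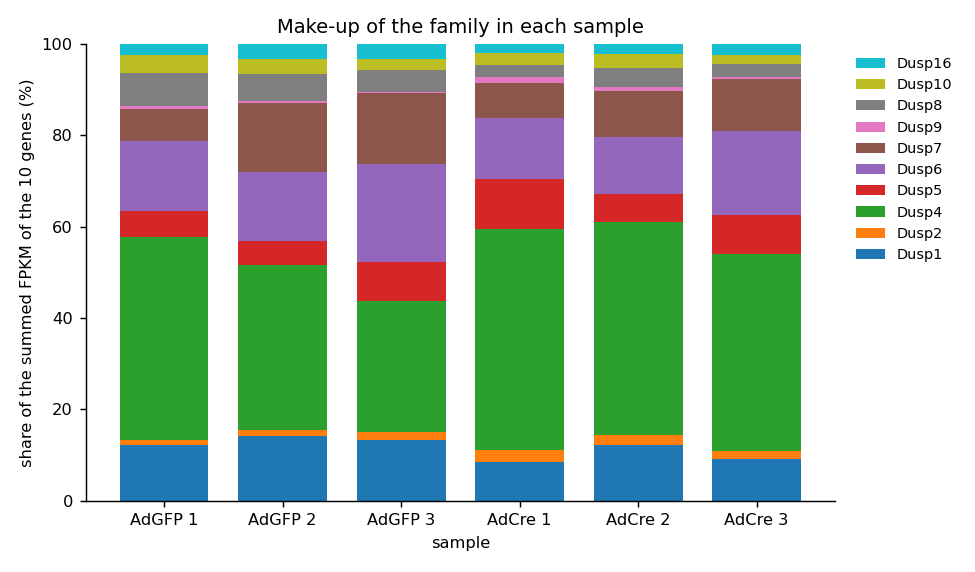
Share of each gene in the summed FPKM of the 10 phosphatases (y axis, %) in each of the 6 samples. Dusp4 is the largest segment in every sample, from 28.7% in AdGFP replicate 3 to 48.2% in AdCre replicate 1.

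After the group means were subtracted, some members varied together over the 6 samples. These correlations are a description over samples that share libraries and replicate numbers. Dusp4 went with Dusp9 (Pearson r = 0.953) and with Dusp10 (r = 0.940), Dusp1 with Dusp8 (r = 0.938) and Dusp2 with Dusp5 (r = 0.773), while Dusp4 and Dusp7 went opposite ways (r = -0.882). Without subtraction of the means, the genes whose log2 levels were most like those of Dusp2 were Podxl (r = 0.995), Crlf3 (r = 0.989) and Cbarp (r = 0.987). For Dusp4 they were Rundc3a (r = 0.997), the pseudogene Ptges3-ps (r = 0.995) and Robo2 (r = 0.992). A search over 13794 genes with only 6 samples can give values this high without any relation between the genes.

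Of 15 atypical and related DUSP genes, 11 were tested, their median log2 fold change was 0.037 and Dusp21 was at 0 in every sample. Only Dusp26 was called, and only with the block. Dusp26, an atypical phosphatase, measured 0.632, 0.325 and 0.334 FPKM in AdGFP and 2.55, 1.75 and 1.96 FPKM in AdCre. Its groups stood well apart, and its log2 fold change of 2.07 (SE 0.31, limma adjusted p = 0.113, and 0.0144 with the block) exceeded that of every typical member. These levels rest on only 19 to 36 reads in AdGFP and 104 to 188 reads in AdCre. Its AdGFP mean of 0.430 FPKM was under 0.5 FPKM, so it passed the filter through its AdCre levels. Among the tyrosine phosphatases that act on MAP kinases, Ptpn7 was the only 1 of 3 that passed the filter, with a mean of 0.472 ± 0.373 FPKM in AdGFP against 0.780 ± 0.483 FPKM in AdCre (SD, n = 3; limma adjusted p = 0.784).

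The kinases that these phosphatases act on or follow were not called in either fit. All 7 ERK cascade kinases passed the filter and had a median of -0.14 on the log2 scale, and the lowest p-value belonged to Araf (-0.21), a kinase at the head of the cascade. Of 11 kinases of the JNK and p38 cascades 10 passed it, and their median was 0.14. Mapk11, which encodes a p38 kinase, had a log2 fold change of 0.77 (limma adjusted p = 0.321, and 0.0894 with the block), and Map2k4, a kinase upstream of JNK, one of 0.18.

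Among other known targets and inhibitors of ERK signaling, single genes were called. No gene of these lists passed with the group alone. With the block, 2 of 14 tested immediate-early factors were called, both higher: Egr2 (log2 fold change 1.13, limma adjusted p = 0.0346) and Fosl1 (1.47, limma adjusted p = 0.0346), beside a list median of 0.068. Of the 3 ETS factors, Etv4 was called (1.32, limma adjusted p = 0.0145). None of the 6 tested Sprouty and Spred genes, inhibitors that act between receptor and RAF, was called in either fit. Their median was 0.15, and the lowest p-values of the group fit belonged to Spred2 (0.40) and Spred3 (0.56), with limma adjusted p-values of 0.0848 and 0.0518 in the blocked fit. Spry2 (-0.37), named after its value was seen, had a limma adjusted p of 0.0632 there.

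**Figure D5:**
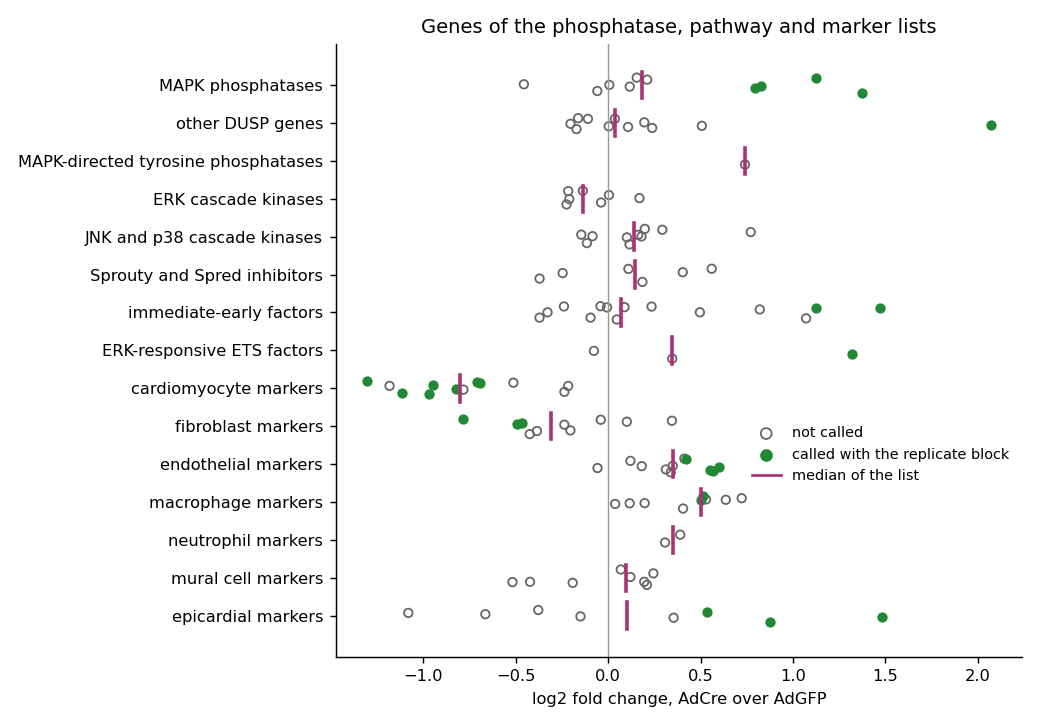
Log2 fold change of AdCre over AdGFP (x axis) for every tested gene of the phosphatase, pathway and marker lists. Filled points are called by limma with the replicate block, open points are not, and a bar marks the list median, which is 0.18 for the MAPK phosphatases and -0.80 for the cardiomyocyte markers.

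Markers of several cell types moved with the group as well. By limma with the group alone no marker was called (adjusted p-values of 0.244 to 0.902 for those named as called here), and each call in this paragraph is from the fit with the block. All 12 cardiomyocyte markers were lower in AdCre, 7 of them called, with a median log2 fold change of -0.80. Their summed level was 5098 to 8575 FPKM in AdGFP and 2827 to 4359 FPKM in AdCre, without overlap. Examples are Pln, the inhibitor of the calcium pump (-1.31), Myl2, the ventricular light chain (-1.12), Tnni3 (-0.82) and Tnnt2 (-0.71). Of the 11 endothelial markers 4 were called higher (Flt1, Egfl7, Eng and Cdh5), 10 had a log2 fold change above 0 and the median was 0.35, with a summed level of 102 to 156 FPKM in AdGFP and 147 to 216 FPKM in AdCre. Of 8 epicardial markers 3 were called higher (Krt8, Krt18 and Aldh1a2), and the list split evenly, with 4 log2 fold changes above 0 and 4 below and a median of 0.10. Msln (-1.08), Upk3b (-0.66), Wt1 (-0.38) and Upk1b (-0.15) were the 4 below 0, none of them called and all named here after their values were seen. The list summed to 241 to 370 and 394 to 494 FPKM, without overlap. Mean levels in AdGFP and AdCre were 107 and 189 FPKM for Krt18 and 48.4 and 123 FPKM for Krt8, the largest rises in the list. Of 9 tested macrophage markers 2 were called higher (C1qb and Lyz2), all 9 were above 0 and the median was 0.50, with sums of 50.6 to 277 and 89.1 to 346 FPKM. The lowest sum of each group was in replicate 1, as it was for the endothelial and the fibroblast markers. The fibroblast markers had 3 of 10 called lower (Dcn, Lum and Col3a1), 8 below 0 and 2 above and a median of -0.31, with sums of 2605 to 4680 and 2293 to 3359 FPKM. None of the 8 mural cell markers was called, with sums of 822 to 1316 and 978 to 1209 FPKM. Of these, 5 were above 0 and 3 below, with a median of 0.094, and the lowest p-values of the group fit belonged to Kcnj8 (-0.52) and Rgs5 (-0.42). Nor were the 2 tested of 7 neutrophil markers, S100a9 (0.31) and S100a8 (0.39), with sums of 0.720 to 2.19 and 0.995 to 2.27 FPKM and Ly6g at 0. The part of these cell types in the differences of Dusp2, Dusp4, Dusp5 and Dusp9 was not tested.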

How the data were processed

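Gene-level FPKM of polyadenylated RNA was deposited by the authors as 1 table for all 6 samples. The submitters' processing notes name fastp, STAR 2.5, HTSeq 0.6.1 and mm10. The annotation, the use of strand and the scaling of library sizes are not given in the sources used here. Gene IDs were matched to GENCODE M21 (GRCm38, the assembly of mm10), in which 123 of the 54532 IDs have no entry. Columns of values left unmapped numbered 0.

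FPKM values moved in steps of whole reads: with the M21 exonic length as the gene length, 96.8% of 28422 genes gave whole reads (within 0.02 of a read), from which the depth of each library (25276396 to 32428940 reads in genes) and the read counts were recovered. They also showed a scaling between samples of 0.949 to 1.05, made before deposit. Intervals cover the spread between samples. The main test was limma 3.58.1 (R 4.3.3; trend in the variance prior) on log2(FPKM + 0.1) of genes averaging 0.5 FPKM or more over the samples, with the group as the only term, all 6 samples and Benjamini-Hochberg adjustment over 13794 genes. The paired fit added the replicate number as a block. AdGFP and AdCre samples of the same number had correlated deviations from their group means (0.568, 0.268 and 0.506 for replicates 1 to 3, against -0.497 to 0.036 for other combinations), so the block is reported beside each call it changes. Deviations sum to 0 within each group, so positive values for the same numbers force lower ones elsewhere. The other combinations are therefore no independent comparison. Single genes were also compared by exact two-sided permutation of the samples. The procedure was tested on simulated data.

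The members and the gene lists were chosen with earlier results of these data known, so lists are described by counts and medians. From each other list the text names at most 4 genes called in either fit, by the smallest blocked p, or, where none was called, the 2 with the smallest p of the group fit. One item under this rule is not reported here. Genes like Dusp2 and like the most abundant member were the 3 with the highest Pearson correlation over the 6 samples. Alternatives were other pseudocounts, filters, scalings, variance priors, voom on recovered reads and each sample left out. Promoters were taken from RefSeq (GRCm38.p6). Descriptive values were computed with Python 3.11.15.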

Additional observations from a re-analysis of the deposited data

How the results depend on the processing

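The number of members called was 0 in the group fit and in each of its alternatives, and 4 with the replicate block. The 4 calls of the paired fit (Dusp2, Dusp4, Dusp5 and Dusp9) fell to 0 without a filter on low values, to 0 without a trend in the variance prior, and to 0 without replicate 2 or replicate 3 of both groups, where the calls over all genes fell from 848 to 17, 0, 152 and 1. Leaving out 1 sample gave 0 to 4 calls, and TPM, where 17189 genes passed the filter, gave 3, with Dusp5 at a log2 fold change of 0.92 and a limma adjusted p of 0.051. The direction of these 4 held in all 17 alternatives of the group fit and all 20 of the blocked fit. Several of these settings leave the fold change as it was by construction. Each of the 4 was higher in all 3 pairs, so leaving out samples could not reverse its sign in the blocked fit. Members without overlap of the groups numbered 4 in TPM against 2, all higher, where the share of all genes that were higher without overlap was 11.1% against 7.36%. With 1 sample left out 2 to 4 were higher, where that share ran from 9.3% to 15.8%, and without AdGFP replicate 3 another 2 were lower, beside 14.8% of all genes. The members' median log2 fold change of 0.18 was 0.27 in TPM, 0.24 without the authors' scaling and 0.16 to 0.41 with 1 sample left out, while the median of all genes moved from -0.0022 to 0.092 in TPM and 0.058 without the scaling. Near 0, the sign depended on single samples for Dusp1 (-0.11 to 0.13), Dusp7 (-0.061 to 0.23) and Dusp10 (-0.15 to 0.51), and Dusp16 was 0.029 in TPM and 0.0019 without the authors' scaling, below the median of all genes in each. Over all genes, 1 was called with the group alone (0 to 4 over its alternatives) and 848 with the block (0 to 1547 over its alternatives). Of the blocked calls 364 were higher, and 358 of 594 in TPM and 478 of 873 without the authors' scaling were higher. In the pathway and marker lists 0 genes were called with the group alone and 23 with the block. Causes of these shifts were not tested beyond what each setting changes by construction. Among the members, depth limits Dusp9 and Dusp2 most.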
